A study of Homo sapiens with 8 samples.

Results

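The transcription factors that set myeloid fate were followed here in Kasumi-1 cells, an acute myeloid leukemia line that carries the AML-ETO fusion. The 9 genes were SPI1 (which encodes PU.1), CEBPA, CEBPB, CEBPD, CEBPE, IRF8, KLF4, GFI1 and MYB. Every probe set listed with exactly 1 gene symbol for one of these genes was taken, which gave 12 probe sets of the 41091 with 1 symbol, or 9 genes of 19775. All cells were electroporated with in vitro transcribed mRNA, and total RNA was taken 6 h later for Affymetrix expression arrays. The mRNA encoded wild type NR4A1 (NR4A1 WT, 3 arrays), NR4A1 mutated in its DNA binding domain (NR4A1 CEAA, 2 arrays) or, as control, GFP (3 arrays). The comparisons ask which genes respond to brief NR4A1 expression and which of these responses differ when the DNA binding domain is mutated. The model is a single cell line with transient expression from introduced mRNA, and no array of cells without electroporation was used here. Nothing in the sources used here says that the arrays of a group came from separate cultures, and the p-values therefore speak only of how much these arrays vary.

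PU.1 and the C/EBP proteins are the core activators of myeloid genes. PU.1 opens chromatin at monocyte and granulocyte genes, and C/EBP alpha and epsilon drive early and late granulocyte differentiation. IRF8 and KLF4 favor the monocyte fate, GFI1 represses monocyte genes and so favors granulocytes, and MYB maintains proliferating progenitors. In leukemia with AML-ETO, the fusion protein is known to interfere with PU.1 and C/EBP alpha.

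Of the 12 probe sets, 9 were lower in NR4A1 WT cells than in GFP cells, 1 was higher and 2 did not pass the test. These 9 covered 7 genes, namely SPI1, CEBPA, CEBPB, CEBPD, CEBPE, IRF8 and MYB, and the higher one was GFI1. Across all 54613 probe sets, 5.56% were lower and 5.06% higher in the same fit (limma, adjusted p below 0.05). With NR4A1 CEAA, 3 member probe sets were lower than with GFP, those of SPI1, CEBPA and CEBPE, against 6.81% of all probe sets. IRF8 was the 1 member that was higher with NR4A1 CEAA, against 5.91% of all probe sets. When NR4A1 WT was set directly against NR4A1 CEAA, 6 member probe sets were lower and 1 was higher, against 10.9% and 11.2% of all probe sets. The 6 belonged to SPI1, CEBPD, IRF8 and MYB, and the higher one to GFI1. Both comparisons against GFP used the same 3 GFP arrays, so their values are given side by side and not as separate support for each other.

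The arrays had median log2 intensities of 4.755 to 4.802. Over all probe sets, the SD of the difference between 2 arrays was 0.158 to 0.227 for arrays of the same group, 0.291 to 0.314 for an NR4A1 WT and a GFP array, and 0.276 to 0.302 for an NR4A1 CEAA and a GFP array. A level below its array's median is called dim here, since it was not shown to be above background. Of 8 blast markers 7 were measured, and all 7 lay above the median in all 8 arrays, with mean log2 levels of 9.78 to 9.84 in NR4A1 WT, 9.93 to 9.94 in NR4A1 CEAA and 9.66 to 9.81 in GFP arrays. Among the blast markers CD38 and PTPRC passed as higher (0.37 and 0.52) and RUNX1T1, the ETO part of the fusion, as lower (-0.36) in NR4A1 WT than in GFP cells. The CD38 call was lost with any array left out. Of the other probe sets, 1 of 4 for PTPRC passed as higher and 2 of 6 for RUNX1T1 as lower in this comparison. With NR4A1 CEAA against GFP, CD38 (0.44), PTPRC (0.48) and the receptor gene KIT (0.25) passed as higher. The calls of CD38 and PTPRC were each lost without the third GFP array or either NR4A1 CEAA array. The KIT call was lost when any array other than the first or the second NR4A1 WT array was left out. By Rank Product KIT did not pass (q = 0.799). The means of the T and NK cell, erythroid and stromal markers stayed between 4.68 and 5.21 in all arrays, and 7 of these 15 genes were above the median in every array. The B cell markers had mean log2 levels of 5.24 to 5.41 with NR4A1 WT, 5.21 to 5.40 with NR4A1 CEAA and 5.30 to 5.42 with GFP, with 2 of 4 genes above the median in every array. Of these, CD79B was higher with NR4A1 WT and lower with NR4A1 CEAA than with GFP, by 0.38 (lost in 5 of 8 fits with an array left out) and -0.56 on the log2 scale. The 2 other CD79B probe sets did not pass. Whether these shifts had a part in the results below was not tested. The 3 probe sets of NR4A1 itself did not pass in either comparison with GFP. The position of these probe sets relative to the introduced coding sequence is not given in the sources used here, so they check nothing about the labels.

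**Figure D1:**
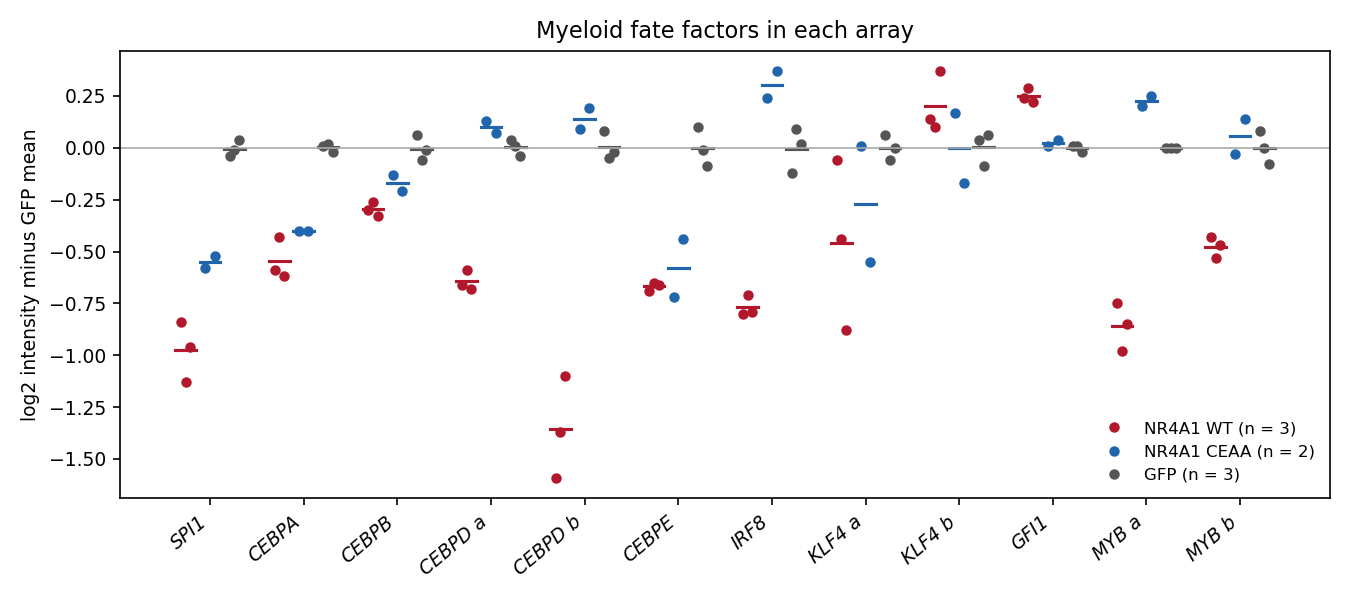
Log2 intensity of each member probe set in each array minus that probe set's GFP mean (vertical axis, log2 units), with points for the arrays of NR4A1 WT (n = 3), NR4A1 CEAA (n = 2) and GFP (n = 3) from left to right and a bar at each group mean. Where a gene has 2 probe sets, a marks the brighter and b the dimmer. The NR4A1 WT points of SPI1, CEBPA, CEBPB, CEBPD, IRF8 and MYB lie below both other groups, and those of GFI1 lie above.

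SPI1 encodes PU.1, the ETS family factor required for monocyte and granulocyte development. Its probe set (205312_at) read 6.01, 5.72 and 5.89 in NR4A1 WT arrays, 6.27 and 6.33 in NR4A1 CEAA arrays and 6.81, 6.84 and 6.89 in GFP arrays. The 3 groups did not overlap, with NR4A1 WT lowest, NR4A1 CEAA between and GFP highest. The level in NR4A1 WT cells was 0.509 of that in GFP cells, a log2 difference of -0.97 ± 0.08 (SE, limma, adjusted p = 0.000131). With NR4A1 CEAA SPI1 fell by 0.55 ± 0.09 against GFP (SE, adjusted p = 0.0068, limma). The direct difference between NR4A1 WT and NR4A1 CEAA was -0.43 ± 0.09 (SE, adjusted p = 0.0096, limma). Without the first NR4A1 CEAA array the NR4A1 CEAA difference from GFP no longer passed (-0.51, adjusted p = 0.0692), and without the second the direct difference did not (-0.40, adjusted p = 0.0792). In bulk RNA, less transcript per cell and fewer cells with the transcript cannot be told apart.

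CEBPA encodes C/EBP alpha, which starts the granulocyte program. It read 7.50, 7.66 and 7.47 in NR4A1 WT arrays, 7.69 and 7.69 in NR4A1 CEAA arrays and 8.10, 8.11 and 8.07 in GFP arrays (probe set 204039_at). All arrays with either form of NR4A1 lay below all GFP arrays. CEBPA fell with both forms, with log2 differences from GFP of -0.55 ± 0.07 for NR4A1 WT (SE, limma, adjusted p = 0.00122) and -0.40 ± 0.08 for NR4A1 CEAA (SE, adjusted p = 0.0118). The direct difference of NR4A1 WT from NR4A1 CEAA was -0.15, with a 95% interval from -0.32 to 0.03, and did not pass (adjusted p = 0.229, limma). The NR4A1 CEAA call was lost without the first or the second NR4A1 CEAA array, at adjusted p = 0.0849 and 0.0839, with the difference at -0.40 in each fit.

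CEBPE encodes C/EBP epsilon, a factor of terminal granulocyte differentiation. Its levels were 7.94, 7.98 and 7.97 in NR4A1 WT arrays, 7.91 and 8.19 in NR4A1 CEAA arrays and 8.73, 8.62 and 8.54 in GFP arrays (214523_at). The arrays of the 2 NR4A1 forms overlapped, and all 5 lay below the GFP arrays. CEBPE fell with both forms, at -0.67 ± 0.09 with NR4A1 WT (SE, limma, adjusted p = 0.00142) and -0.58 ± 0.10 with NR4A1 CEAA (SE, adjusted p = 0.00656). The direct difference was -0.08, with a 95% interval from -0.30 to 0.14 (adjusted p = 0.608, limma). Without the first NR4A1 CEAA array the NR4A1 CEAA difference was -0.44 and did not pass (adjusted p = 0.0623). The CEBPE promoter is shown because it held the most matches to the ETS core GGAAG among the members that fell with NR4A1 WT. It is the 250 bases before the start, at chr14:23119256-23119505 on the minus strand of GRCh38.p14 (RefSeq), printed 5' to 3' with the cores in capitals.
CEBPE: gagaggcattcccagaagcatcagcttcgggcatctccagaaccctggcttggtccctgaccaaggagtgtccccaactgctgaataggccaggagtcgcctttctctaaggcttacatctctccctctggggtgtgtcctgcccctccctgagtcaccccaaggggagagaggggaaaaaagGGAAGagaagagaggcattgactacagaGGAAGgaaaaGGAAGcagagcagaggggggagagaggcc

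CEBPB encodes C/EBP beta, which acts in monocytes and in emergency granulopoiesis. Its probe set 212501_at read 9.23, 9.27 and 9.20 in NR4A1 WT arrays, 9.40 and 9.32 in NR4A1 CEAA arrays and 9.59, 9.47 and 9.52 in GFP arrays. The 3 groups were ordered without overlap, NR4A1 WT lowest and GFP highest, over a narrow range. CEBPB fell by 0.29 ± 0.06 with NR4A1 WT (SE, limma, adjusted p = 0.0188). The call was lost without the first GFP array (-0.26, adjusted p = 0.0803), the third GFP array (-0.30, adjusted p = 0.0593) or the third NR4A1 WT array (-0.28, adjusted p = 0.0582). With NR4A1 CEAA the difference from GFP was -0.16 ± 0.07 (SE, adjusted p = 0.18), and the direct difference of NR4A1 WT from NR4A1 CEAA was -0.13, with a 95% interval from -0.29 to 0.03 (adjusted p = 0.251, limma). Neither passed the test, and the NR4A1 CEAA difference passed when the variance followed intensity (adjusted p = 0.045).

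CEBPD encodes C/EBP delta, an inflammation-induced family member. Its brighter probe set (203973_s_at) read 10.59, 10.66 and 10.57 in NR4A1 WT arrays, 11.38 and 11.32 in NR4A1 CEAA arrays and 11.29, 11.26 and 11.21 in GFP arrays. Its dimmer probe set (213006_at) read 4.40, 4.62 and 4.89 in NR4A1 WT arrays, 6.08 and 6.18 in NR4A1 CEAA arrays and 6.07, 5.94 and 5.97 in GFP arrays. On both probe sets the NR4A1 WT arrays were lowest and apart from all others, and the NR4A1 CEAA arrays were highest. The dimmer probe set was above the array median in 1 of 3 NR4A1 WT arrays only. CEBPD fell with NR4A1 WT, at -0.65 ± 0.06 against GFP on the brighter (SE, limma, adjusted p = 0.000246) and -1.36 ± 0.12 on the dimmer probe set (SE, adjusted p = 0.000153). With NR4A1 CEAA the differences from GFP were 0.10 and 0.14 and did not pass (adjusted p = 0.421 and 0.569, limma), with 95% intervals from -0.06 to 0.25 and from -0.16 to 0.43. The direct difference of NR4A1 WT from NR4A1 CEAA passed on both probe sets, at -0.74 ± 0.07 and -1.49 ± 0.13 (SE, limma, adjusted p = 0.000138 and 0.000112). No single array left out ended a call for CEBPD.

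IRF8, the interferon regulatory factor that directs progenitors to monocytes and dendritic cells, read 7.92, 8.01 and 7.93 in NR4A1 WT arrays, 8.96 and 9.09 in NR4A1 CEAA arrays and 8.60, 8.81 and 8.74 in GFP arrays (204057_at). The groups did not overlap, and the NR4A1 CEAA arrays lay above the GFP arrays while the NR4A1 WT arrays lay below them. With NR4A1 WT the level was 0.59 of that with GFP, a log2 difference of -0.76 ± 0.08 (SE, limma, adjusted p = 0.000352). With NR4A1 CEAA IRF8 rose by 0.31 ± 0.09 against GFP (SE, adjusted p = 0.0475, limma). This call was lost when any of the 8 arrays was left out, with values of 0.24 to 0.38 and adjusted p of 0.052 to 0.283. The direct difference between NR4A1 WT and NR4A1 CEAA was -1.07 ± 0.09 (SE, adjusted p = 7.56e-05, limma) and passed in each of those 8 fits. The first of its 2 RefSeq promoters is shown, since IRF8 stood on opposite sides of GFP with the 2 forms of NR4A1. It lies at chr16:85902580-85902829 on the plus strand of GRCh38.p14 and is printed 5' to 3', with ETS cores (GGAAG, or CTTCC on the other strand) in capitals.
IRF8: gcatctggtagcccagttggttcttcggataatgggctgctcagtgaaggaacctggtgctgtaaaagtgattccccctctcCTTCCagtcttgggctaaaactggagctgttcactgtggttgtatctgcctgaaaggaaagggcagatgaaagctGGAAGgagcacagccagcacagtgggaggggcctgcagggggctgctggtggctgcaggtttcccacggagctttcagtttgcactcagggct

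KLF4, a zinc finger factor of monocyte differentiation, was covered by 2 probe sets, both dim in all 8 arrays. The brighter (220266_s_at) read 4.57, 4.19 and 3.75 in NR4A1 WT arrays, 4.64 and 4.08 in NR4A1 CEAA arrays and 4.69, 4.57 and 4.63 in GFP arrays. The other (221841_s_at) read 3.30, 3.26 and 3.53 in NR4A1 WT arrays, 3.33 and 2.99 in NR4A1 CEAA arrays and 3.20, 3.07 and 3.22 in GFP arrays. On the brighter the spread of the NR4A1 arrays was the widest of any member and reached the GFP levels. The NR4A1 WT differences from GFP were -0.46 (95% interval -0.92 to 0.00) and 0.20 (-0.04 to 0.45), of opposite sign, and neither passed (limma, adjusted p = 0.226 and 0.325). A change of KLF4 was not detectable at these levels.

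GFI1, a zinc finger repressor that holds back monocyte genes during granulocyte differentiation, was the only member to rise with NR4A1 WT. It read 10.96, 11.01 and 10.94 in NR4A1 WT arrays, 10.73 and 10.76 in NR4A1 CEAA arrays and 10.73, 10.73 and 10.70 in GFP arrays (206589_at). The NR4A1 WT arrays lay above all others, and the other 2 groups overlapped. The rise was 0.25 ± 0.06 on the log2 scale, or 1.19-fold (SE, limma, adjusted p = 0.0243). With NR4A1 CEAA the difference from GFP was 0.03, with a 95% interval from -0.12 to 0.17 (adjusted p = 0.851, limma). The direct difference was 0.22 ± 0.06 (SE, adjusted p = 0.0353, limma). The NR4A1 WT call was lost without any 1 of the GFP arrays (adjusted p = 0.0769, 0.0748 and 0.0872 without the first, the second and the third) or without the second NR4A1 WT array (0.0637), with values of 0.23 to 0.26. The direct call was lost in all 8 such fits (0.21 to 0.24, adjusted p = 0.0545 to 0.18). The most upstream GFI1 promoter is shown because it held the nuclear receptor hexamer AGGTCA, which stands in capitals as TGACCT on the printed strand. It lies at chr1:92486926-92487175 on the minus strand of GRCh38.p14 (RefSeq), and the match begins 137 bases before the start.
GFI1: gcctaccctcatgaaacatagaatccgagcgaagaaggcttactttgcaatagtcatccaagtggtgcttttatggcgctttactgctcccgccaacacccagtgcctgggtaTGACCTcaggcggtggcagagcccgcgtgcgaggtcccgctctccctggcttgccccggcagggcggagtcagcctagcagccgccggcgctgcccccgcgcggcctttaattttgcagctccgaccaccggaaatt

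MYB, the proto-oncogene that keeps progenitors dividing, was lower with NR4A1 WT on both of its probe sets. Its brighter probe set (204798_at) read 11.33, 11.10 and 11.23 in NR4A1 WT arrays, 12.28 and 12.33 in NR4A1 CEAA arrays and 12.08, 12.08 and 12.08 in GFP arrays. The dimmer (215152_at) read 6.41, 6.31 and 6.37 in NR4A1 WT arrays, 6.81 and 6.98 in NR4A1 CEAA arrays and 6.92, 6.84 and 6.76 in GFP arrays. NR4A1 WT arrays were lowest on both probe sets, while NR4A1 CEAA arrays were above GFP on the brighter and overlapped with GFP on the dimmer. MYB fell with NR4A1 WT, at -0.86 ± 0.07 against GFP on the brighter (SE, limma, adjusted p = 0.000129) and -0.48 ± 0.07 on the dimmer probe set (SE, adjusted p = 0.00359). With NR4A1 CEAA the differences were 0.22 ± 0.08 and 0.05 ± 0.08 (SE, limma, adjusted p = 0.111 and 0.746) and did not pass. The first passed when the variance followed intensity (adjusted p = 0.00327), with array weights (0.0493) or among brighter probe sets alone (0.0442). The direct differences were -1.08 ± 0.08 and -0.53 ± 0.08 (SE, adjusted p = 5.48e-05 and 0.00195, limma), and both passed whichever array was left out.

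**Figure D2:**
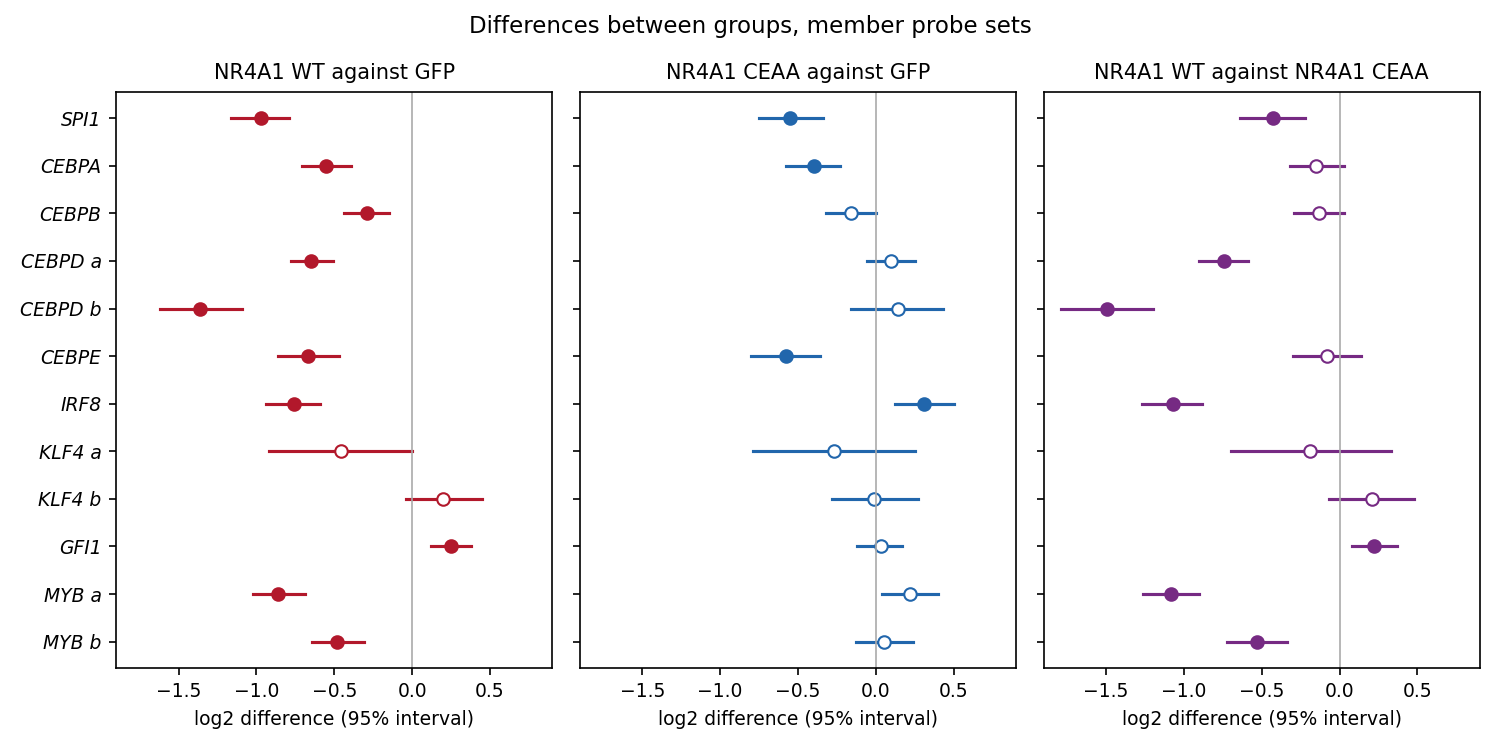
Log2 difference (horizontal axis) of each member probe set, for NR4A1 WT minus GFP at left, NR4A1 CEAA minus GFP in the middle and NR4A1 WT minus NR4A1 CEAA at right, with 95% intervals from limma. Filled points passed at adjusted p below 0.05 over all probe sets and open points did not, and the widest intervals are those of KLF4 and of the dimmer CEBPD probe set. SPI1, CEBPA and CEBPE lie left of 0 in both comparisons with GFP.

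Side by side, SPI1, CEBPA and CEBPE were lower than in GFP cells with either form of NR4A1, and of these SPI1 alone passed the direct comparison. CEBPD, IRF8 and MYB were lower with NR4A1 WT, did not pass as lower with NR4A1 CEAA, and passed the direct comparison. The arrays did not overlap for 11 of the 12 probe sets between NR4A1 WT and GFP, where 27.3% of all probe sets did not. For NR4A1 CEAA against GFP this was 8 of 12, where the share over all probe sets was 46.4%, and for NR4A1 WT against NR4A1 CEAA 9 of 12, where it was 47.2%. By Rank Product, 6 member probe sets fell with NR4A1 WT against GFP (1.42% of all), without CEBPA (q = 0.0697), CEBPB (0.608) and the dimmer MYB probe set (0.141). With the same test GFI1 did not pass as higher (q = 0.794). No member fell with NR4A1 CEAA against GFP (1.38% of all), and 1, the dimmer CEBPD probe set, fell with NR4A1 WT against NR4A1 CEAA (0.716% of all). SPI1, CEBPA and CEBPE had q = 0.0768, 0.284 and 0.0606 for NR4A1 CEAA against GFP.

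The promoters were searched on both strands in the 250 bases before each RefSeq start. Of the 9 genes 7 matched, with 11 promoters, and SPI1 and CEBPD had no entry. None of the 11 held the NR4A1 binding element NBRE (AAAGGTCA), the ETS site CCGGAAGT or the PU box GAGGAAGT, which stood in 1.05%, 3.42% and 2.17% of 35116 promoters. The hexamer AGGTCA, which lies inside the NBRE, stood in 2 member promoters, the GFI1 promoter shown above and the second IRF8 promoter, where it begins 182 bases before the start. Over all promoters the share was 12.1%. The core GGAAG, which lies inside both the ETS site and the PU box, stood in 6 of the 11, those of CEBPB, CEBPE, GFI1, IRF8 and KLF4, against 65.1% of all promoters. Hexamer and core were added after the values were seen, and a match of letters does not show a bound site.

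Known targets of these factors were counted in the same fit. Of 16 measured PU.1 target genes 2 were lower and 1 was higher with NR4A1 WT than with GFP. Over all genes 8.03% were lower and 7.48% higher, counted on 1 probe set per gene, and the list's median difference was -0.04, against 0.00 for all genes. CSF1R, the receptor that sustains monocytes and a textbook PU.1 target, read 5.38, 5.33 and 5.52 with NR4A1 WT, 5.78 and 6.03 with NR4A1 CEAA and 6.05, 6.07 and 6.16 with GFP. The groups did not overlap, and the NR4A1 WT difference from GFP was -0.68 ± 0.09 (SE, limma, adjusted p = 0.00122). With NR4A1 CEAA the CSF1R difference from GFP was -0.19 and did not pass (limma, adjusted p = 0.251). The direct difference was -0.49 (limma, adjusted p = 0.00632), and did not pass without the second NR4A1 CEAA array (-0.37). CSF2RB, the common beta chain of the GM-CSF receptor family, rose by 0.78 ± 0.06 with NR4A1 WT (SE, adjusted p = 7.98e-05, limma). With NR4A1 CEAA it was at 0.22 and did not pass (limma, adjusted p = 0.0657), and the direct difference was 0.56 (adjusted p = 0.00052). JUNB, an AP-1 subunit, fell by 0.34 ± 0.09 with NR4A1 WT (SE, adjusted p = 0.0466, limma) but lost its call in 7 of 8 fits with an array left out. With NR4A1 CEAA JUNB was at -0.35 against GFP and did not pass (limma, adjusted p = 0.0552). The direct difference of NR4A1 WT from NR4A1 CEAA for JUNB was 0.01 (limma, adjusted p = 0.953). Against GFP, 3 PU.1 targets were lower and 0 higher with NR4A1 CEAA, where 9.57% of all genes were lower and 5.2% higher. These 3 were FES, CSF3R, the G-CSF receptor, and NCF4, a subunit of the phagocyte oxidase. Of them CSF3R was at -0.71 and NCF4 at -0.65 with NR4A1 CEAA, and at -0.12 and -0.15 with NR4A1 WT, and both genes passed directly (0.58 and 0.51 higher with NR4A1 WT than with NR4A1 CEAA). FES was at -0.37 with NR4A1 CEAA and -0.07 with NR4A1 WT, and also passed directly (0.30, limma, adjusted p = 0.0194). Each FES call was lost in at least 1 fit with an array left out. In the direct comparison the list's median was 0.14, against 0.03 for all genes. FES, CSF3R and NCF4 were named after their values were seen.

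Of 15 measured C/EBP target genes, 4 were lower and 0 higher with NR4A1 WT than with GFP. Over all genes 8.03% were lower and 7.48% higher. The list's median difference was -0.08, and the 4 calls came to 2 without the second GFP array. With NR4A1 CEAA 4 of the 15 were lower and 1 higher, against 9.57% and 5.2% of all genes. The median there was -0.07. The higher call was lost in all fits with an array left out except those without the first or the second NR4A1 WT array. The primary granule protease genes ELANE and PRTN3 fell with both forms. ELANE, neutrophil elastase, read 9.26, 9.36 and 9.27 with NR4A1 WT, 9.08 and 9.22 with NR4A1 CEAA and 9.66, 9.81 and 9.82 with GFP (log2 differences from GFP of -0.47 and -0.61, limma adjusted p = 0.00412 and 0.00283). PRTN3, proteinase 3, read 9.43, 9.57 and 9.52 with NR4A1 WT, 8.85 and 8.81 with NR4A1 CEAA and 9.77, 9.95 and 9.94 with GFP. Its groups did not overlap, and here NR4A1 CEAA was lowest. PRTN3 was 0.68 ± 0.08 higher with NR4A1 WT than with NR4A1 CEAA (SE, limma, adjusted p = 0.000573), and its NR4A1 WT difference from GFP was -0.38 (adjusted p = 0.0111, and 0.0504 without the second GFP array). AZU1, the azurocidin gene beside these, was named after its values were seen and was at -0.28 with NR4A1 WT, lost in 7 of 8 fits with an array left out, and at -0.92 with NR4A1 CEAA (limma, adjusted p = 0.0359 and 0.000473). IL6R, a receptor chain for IL-6, fell by 1.34 ± 0.10 with NR4A1 WT (SE, adjusted p = 6.87e-05, limma). On this probe set IL6R was at 0.19 with NR4A1 CEAA (limma, adjusted p = 0.32) and differed directly by -1.53. Of its 2 other probe sets, 1 passed as lower with NR4A1 WT against GFP and 1 as higher with NR4A1 CEAA against GFP. In the direct comparison 1 of these 2 passed as lower. MPO, myeloperoxidase, was near the top of the scale at 14.34 to 14.43 in all arrays and did not pass on this brightest probe set, while its other probe set passed as lower with NR4A1 CEAA against GFP and as higher with NR4A1 WT against NR4A1 CEAA.

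Of 6 measured genes known to be repressed by GFI1, 2 were higher and 1 lower with NR4A1 WT than with GFP. The shares over all genes were 7.48% higher and 8.03% lower. The list's median was 0.00, while GFI1 itself rose. ID2, an inhibitor of basic helix-loop-helix factors, read 10.46, 10.60 and 10.50 with NR4A1 WT, 9.06 and 9.34 with NR4A1 CEAA and 9.50, 9.50 and 9.34 with GFP. It rose by 1.07 ± 0.09 with NR4A1 WT (SE, limma, adjusted p = 0.000131). MEIS1, a homeobox gene of stem cells and leukemia, rose by 0.58 (adjusted p = 0.0109, limma) at dim levels of 4.19 to 4.58 with NR4A1 WT and 3.73 to 3.94 with GFP. The NR4A1 CEAA arrays of MEIS1 read 4.14 and 4.29, also above GFP (0.37, limma, adjusted p = 0.098). They overlapped with NR4A1 WT, and the direct difference was 0.22 (limma, adjusted p = 0.275). The other MEIS1 probe set did not pass, and by Rank Product the rise with NR4A1 WT did not pass (q = 0.0599). The lower gene was ELANE, which the C/EBP and MYB lists share.

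Of 9 measured MYB targets 3 were lower and 0 higher with NR4A1 WT, against 8.03% and 7.48% of all genes. The median of the MYB targets was -0.06. MYC, the growth regulator, read 10.24, 10.23 and 10.18 with NR4A1 WT, 12.11 and 12.14 with NR4A1 CEAA and 11.52, 11.59 and 11.55 with GFP. Like IRF8, MYC lay on opposite sides of GFP with the 2 forms. It was at -1.33 ± 0.06 with NR4A1 WT and 0.57 ± 0.07 with NR4A1 CEAA (SE, limma, adjusted p = 3.72e-06 and 0.0014). By Rank Product the rise with NR4A1 CEAA did not pass for MYC (q = 0.22) or IRF8 (q = 0.651). BCL2, which protects from apoptosis, read 6.59, 6.53 and 6.73 with NR4A1 WT, 8.28 and 8.27 with NR4A1 CEAA and 8.12, 8.27 and 8.18 with GFP. It fell by 1.57 ± 0.07 with NR4A1 WT on this probe set (SE, adjusted p = 5.92e-06, limma). Of the 3 other BCL2 probe sets, 1 passed as lower with NR4A1 WT against GFP. The NR4A1 CEAA arrays of BCL2 overlapped with GFP (0.08, adjusted p = 0.595). Of 9 measured monocyte targets of IRF8 and KLF4, 1 was lower and 0 higher with NR4A1 WT, beside the same shares of all genes. The lower one was CTSC, the cathepsin that activates granule proteases. CTSC fell by 0.40 ± 0.07 (SE, limma, adjusted p = 0.0064). With NR4A1 CEAA against GFP, 0 of the GFI1-repressed genes were higher and 1 lower, and 2 MYB targets were higher and 1 lower. Among the monocyte targets 0 were higher and 1 lower. Over all genes 5.2% were higher and 9.57% lower with NR4A1 CEAA. The 2 higher MYB targets came to 1 in all fits with an array left out except those without the first or the second NR4A1 WT array, and the lower monocyte target was lost without the first or the third GFP array or either NR4A1 CEAA array.

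Of 26 measured relatives of the 9 genes, 4 were higher and 4 lower with NR4A1 WT than with GFP, at a median of 0.06. Over all genes 7.48% were higher and 8.03% lower. With NR4A1 CEAA 1 relative was higher and 5 were lower, against 5.2% and 9.57% of all genes. With an array left out, the 4 lower calls came to between 1 and 3, with 1 without the second or the third GFP array and 2 without the first GFP or the first NR4A1 WT array. The 5 lower calls with NR4A1 CEAA came to between 2 and 6, with 2 without the first and 3 without the second NR4A1 CEAA array. The interferon regulatory factors went different ways. IRF5, which drives inflammatory cytokines, read 8.08, 8.01 and 7.75 with NR4A1 WT, 8.69 and 8.79 with NR4A1 CEAA and 9.01, 9.11 and 8.95 with GFP, and fell by 1.08 ± 0.10 with NR4A1 WT (SE, limma, adjusted p = 0.000186). Its 2 other probe sets did not pass. IRF1 and IRF7, activators of interferon responses, rose by 0.46 ± 0.08 and 0.45 ± 0.07 with NR4A1 WT (SE, adjusted p = 0.00578 and 0.00431, limma). With NR4A1 CEAA their differences from GFP were -0.30 (adjusted p = 0.0595) and -0.33 (adjusted p = 0.0301, lost in 5 of 8 fits with an array left out), and both differed directly, by 0.76 and 0.78. IRF9, the DNA-binding part of the interferon complex ISGF3, was named after its values were seen and read 8.42, 8.34 and 8.46 with NR4A1 WT, 7.19 and 7.26 with NR4A1 CEAA and 8.16, 7.91 and 8.01 with GFP. IRF9 was thus highest with NR4A1 WT and lowest with NR4A1 CEAA, a direct difference of 1.18 ± 0.09 (SE, adjusted p = 5.56e-05, limma). Against GFP it was at 0.38 with NR4A1 WT and -0.80 with NR4A1 CEAA (limma, adjusted p = 0.0154 and 0.00122). The rise with NR4A1 WT did not pass without the second or the third GFP array or the third NR4A1 WT array, nor by Rank Product (q = 0.346).

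Of 15 measured partners and antagonists of the member proteins, 5 were higher and 3 lower with NR4A1 WT than with GFP. The shares over all genes were 7.48% higher and 8.03% lower, and the list's median was -0.01. TRIB1, a pseudokinase that brings C/EBP alpha to degradation, read 11.56, 11.73 and 11.64 with NR4A1 WT, 10.15 and 10.15 with NR4A1 CEAA and 9.95, 9.93 and 9.87 with GFP. It rose by 1.73 ± 0.07 with NR4A1 WT (SE, limma, adjusted p = 1.84e-06) and was 1.49 higher than with NR4A1 CEAA, while its 2 other probe sets passed in none of the 3 comparisons. GATA2, a stem cell factor that opposes PU.1, read 8.40, 8.52 and 8.29 with NR4A1 WT, 7.45 and 7.37 with NR4A1 CEAA and 7.47, 7.49 and 7.41 with GFP. It rose by 0.95 ± 0.08 with NR4A1 WT (SE, adjusted p = 9.59e-05, limma), while NR4A1 CEAA and GFP arrays overlapped. Of the 2 other GATA2 probe sets, 1 passed as higher with NR4A1 WT against GFP. JUN, an AP-1 subunit that works with PU.1, rose by 0.78 ± 0.07 with NR4A1 WT (SE, adjusted p = 0.000207, limma) and was at -0.12 with NR4A1 CEAA (adjusted p = 0.388). Against GFP, 1 partner was higher and 1 lower with NR4A1 CEAA, where 5.2% of all genes were higher and 9.57% lower. The higher call was lost without the first or the third GFP array or either NR4A1 CEAA array, and the lower call without the first NR4A1 CEAA array.

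**Figure D3:**
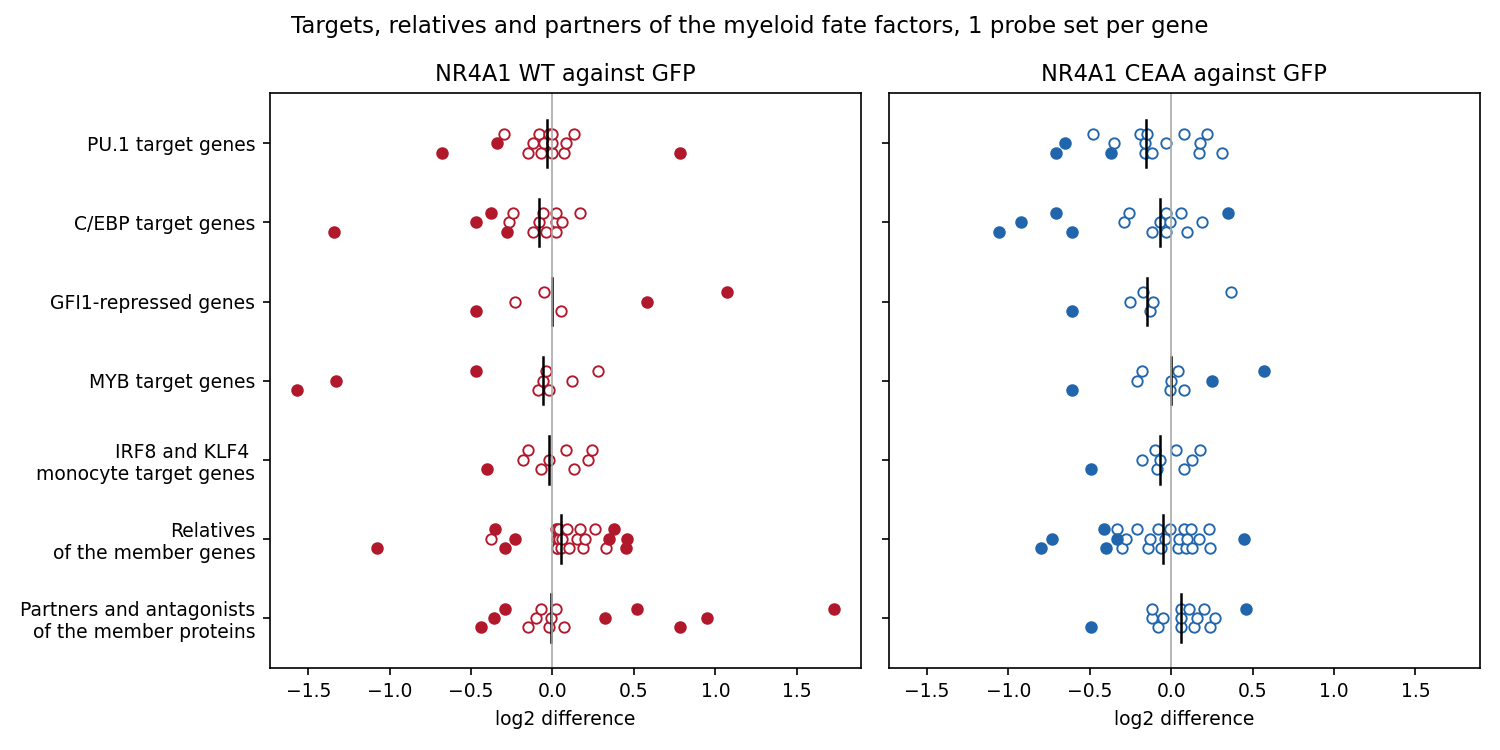
Log2 difference from GFP (horizontal axis) of each gene in 7 lists, with NR4A1 WT at left and NR4A1 CEAA at right, 1 probe set per gene. Filled points passed at adjusted p below 0.05 (limma) and black bars mark list medians, which lie between -0.08 and 0.06 with NR4A1 WT while single genes reach from -1.57 to 1.73.

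The genes most like each member that passed for NR4A1 WT against GFP were found from the brightest probe set of every gene, as the smallest root mean square distance over the 8 arrays after each gene's GFP mean was subtracted. SPI1 was closest to TBXA2R (0.094 log2 units) and STING1 (0.118). IRF8 was closest to PODXL (0.040) and SLC22A5 (0.062), which were at -0.74 and -0.77 with NR4A1 WT and 0.26 and 0.28 with NR4A1 CEAA. MYB was closest to WDR3 (0.027) and ENTR1 (0.047), and CEBPD to ST3GAL5 (0.044) and ERG (0.047). CEBPA was closest to PIM2 (0.050) and TMEM177 (0.054), CEBPE to BYSL (0.049) and SLC1A5 (0.077), and CEBPB to SURF4 (0.028) and LOC101928277 (0.036). GFI1 was closest to COPB2 (0.021) and CEP63 (0.023). Small changes leave small distances, so these values are not comparable between members.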

How the data were processed

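RNA from Kasumi-1 cells was measured on 8 Affymetrix arrays. The deposited values are log2 intensities, 1 for each probe set and array. The authors ran Robust Multiarray Analysis in RMA Express (version not stated), a method that corrects background, quantile-normalizes the arrays and combines the probes of each set. Groups were taken from the labels, and 0 per-sample columns were left unused. The array table gave 1 symbol to 41091 probe sets, several to 1801 and none to 11721. All 54613 probe sets were fitted in 1 model over the 3 groups with limma 3.58.1 (R 4.3.3) and moderated by eBayes, and p-values were adjusted by Benjamini-Hochberg over all of them, with 0.05 as threshold. The main test differs from the Rank Product of the study's methods, which was run as an alternative with 100 permutations. No counts lie behind array intensities, so the number of arrays limits precision. Calls for gene lists used the brightest probe set of each gene with 1 symbol. Named genes were all members and the 2 genes most like each member that passed. From each list they were up to 3 genes with the largest differences among those that passed for NR4A1 WT against GFP without overlap. FES, KIT, MPO, CSF3R, NCF4, AZU1 and IRF9 fell outside these rules and were named after their values were seen. Members, lists and rules were chosen with earlier results of these data known. Alternatives changed the test, variance model, array weights, samples fitted, filter, scaling, replicate block, probe sets tested and threshold, or left out each array. The limma and Rank Product steps were also run on simulated data as a check of the code. There the 2 forms of NR4A1 changed in opposite directions, unlike SPI1, CEBPA and CEBPE here, so no error rate is drawn from it. Promoter sequences came from RefSeq (GRCh38.p14).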

Additional observations from a re-analysis of the deposited data

Results flagged for a closer look

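The following member probe sets stood out because the response to NR4A1 WT and the response to NR4A1 CEAA, each against the same GFP arrays, differed in the direct limma comparison of the 2 forms. On the log2 scale, NR4A1 WT minus NR4A1 CEAA was -0.43 for SPI1, -0.74 and -1.49 for the brighter and the dimmer CEBPD probe set, -1.07 for IRF8, 0.22 for GFI1, and -1.08 and -0.53 for the brighter and the dimmer MYB probe set. NR4A1 WT lay below NR4A1 CEAA in all arrays for the first 4 and for both MYB probe sets, and above it for GFI1. The SPI1 difference did not pass without the second NR4A1 CEAA array (-0.40, adjusted p = 0.0792), and the GFI1 difference did not pass when any array was left out (0.21 to 0.24, adjusted p = 0.0545 to 0.18). By Rank Product, only the dimmer CEBPD probe set passed (q = 0.0135), with q = 0.0646 for IRF8 and 0.0632 for the brighter MYB probe set.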

How the results depend on the processing

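The 12 member probe sets in 3 comparisons gave 669 values under 19 other settings. Of these, 611 kept their side of the threshold, 54 no longer passed, 4 newly passed and 0 changed sign while called. Values that passed in neither fit could change sign and still count among the 611. The brighter KLF4 probe set for NR4A1 CEAA against GFP, for example, ranged from -0.55 to 0.01 when each array was left out. For NR4A1 WT against GFP the 9 lower calls came to 8 to 9 when each array was left out and to 6 by Rank Product, and the 1 higher call (GFI1) to 0 to 1, and to 0 by Rank Product, with the replicate block or at adjusted p below 0.01. For NR4A1 CEAA against GFP the 3 lower calls came to 0 to 3 when each array was left out and to 0 by Rank Product. The 1 higher call (IRF8) came to 0 with any array left out, by Rank Product, with median centring, with only the 2 groups, with the replicate block or at 0.01, and to 2 with array weights, an intensity trend or the filter on dim probe sets. For NR4A1 WT against NR4A1 CEAA the 6 lower calls came to 5 to 6 when each array was left out and to 1 by Rank Product. The 1 higher call (GFI1) came to 0 with any array left out, by Rank Product, with only the 2 groups, after quantile normalization again, with the replicate block or at 0.01. By Rank Product the lower calls for NR4A1 WT against GFP came to 1 of 2 PU.1 targets, 1 of 4 C/EBP targets, 0 of 1 GFI1-repressed genes, 2 of 3 MYB targets, 0 of 1 monocyte targets, 1 of 4 relatives and 0 of 3 partners. The higher calls came to 1 of 1 PU.1 targets, 1 of 2 GFI1-repressed genes, 0 of 4 relatives and 3 of 5 partners. The causes were not tested, except that a stricter threshold cannot raise a count. The labels do not say whether arrays with the same replicate number were prepared together. Deviations from the group means of such arrays correlated at -0.0285 to 0.0634, which cannot show how they were prepared. With the replicate block the lower calls stayed at 9, 3 and 6. Where a NR4A1 CEAA array was left out, the lone array was assumed to vary like the other groups. With 2 NR4A1 CEAA arrays and KLF4 below the median everywhere, the number of arrays and the dim signal limit what could be seen.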
